A study of Mus musculus with 6 samples.

Results

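Collagens are a family of secreted and membrane proteins whose polypeptides, the alpha chains, each come from a gene of their own. The chain genes of this family were taken from a table of 18476 mouse genes as every row whose symbol has the form Col, a type number, the letter a and a chain number, which gave 44 genes. By the structures their chains build, 11 were fibrillar, 6 belonged to the type IV network of basement membranes, 6 to the type VI beaded filaments, and 21 to other classes. The RNA came from wire-injured femoral arteries, collected on day 3, and the mice were C57BL/6 without a mutation (wild type). The arteries had received either saline or vasostatin-2, a fragment of chromogranin A, applied around the vessel, and no other agent or allele is named for either group. Age and sex are not given in the sources used here. Each group had 3 libraries, described as biological replicates and all of 1 batch. The labels name vascular smooth muscle cells, but the RNA came from the whole injured artery, and an uninjured artery is not among the samples analysed here.

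Alpha chains wind in threes into a triple helix, and the family is grouped by what these helices build. Fibrillar collagens form the load-bearing fibres of the vessel wall, type IV forms the sheet under endothelium and around smooth muscle cells, and type VI forms fine filaments near cell surfaces. Fibroblasts and smooth muscle cells make most of the fibrillar chains in a repairing artery, and newly made collagen is part of the neointima and adventitia that follow wire injury.

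Depth was similar in all libraries, with total estimated counts from 19333730 to 20105995. Marker transcripts for several cell types were present in every library. The summed TPM (a level scaled to gene length and to library size) of 6 smooth muscle markers lay between 750.28 and 1706 with saline and between 812 and 2015 with vasostatin-2. That of 6 fibroblast markers lay between 1763 and 2918.5 with saline and between 2848 and 3255 with vasostatin-2. Some libraries stood apart. Red cell markers summed to 43388 TPM in saline replicate 2 and to between 1149 and 9492 TPM elsewhere. Schwann cell markers summed to 573 TPM in saline replicate 3 and to at most 61.4 TPM elsewhere, and skeletal muscle markers to 1220 TPM in vasostatin-2 replicate 3 and at most 122 TPM elsewhere. In bulk tissue, fewer cells of a type and less RNA per cell cannot be told apart.

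Of the 44 genes, 36 passed a filter on low counts and were tested. The 8 others had means between 0.0252 and 0.652 CPM (counts scaled to library size only). They were fibrillar Col2a1, basement membrane Col4a3, and Col9a1, Col9a2, Col10a1, Col19a1, Col25a1 and Col26a1. Col2a1, the main cartilage collagen, had counts of 3, 1 and 28 with saline and 5, 4 and 4 with vasostatin-2. Col9a1, a type IX chain that coats cartilage fibrils, had 0 or 1 count in every library. The cartilage proteoglycan gene Acan was also low, at 0.44 to 1.99 TPM.

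No collagen gene passed the test of vasostatin-2 against saline. The quasi-likelihood test of edgeR, with p adjusted over 14557 genes by the Benjamini-Hochberg method, called 0 of the 36 at an adjusted p of 0.05, where it called 0% of all genes. The lowest adjusted p among the collagens was 0.476, for Col4a6. At an unadjusted p below 0.05 there were 6 collagen genes, 16.7% of those tested, where the share over all genes was 7.14%. These were Col11a1, Col8a2, Col4a1 and Col4a2 on the lower side and Col4a5 and Col4a6 on the higher side. The lower 4 compare with 3.85% of all genes and the higher 2 with 3.29%. The type IV genes among the 6 are 2 pairs of neighbours, and Col11a1 and Col8a2 were both highest in saline replicate 1. The 6 are thus not a count of independent results. Libraries of the groups did not overlap in 7 collagen genes (19.4%), against 12.8% of all genes. The 7 were the same 6 genes and Col15a1, 5 of them lower (6.72% of all genes) and 2 higher (6.07%). DESeq2 called 2 of the 36, Col11a1 and Col4a6, against 0.809% of all genes, and limma-voom called 0. With DESeq2 and 1 library left out, 1, 4 and 3 collagen genes were called without saline replicates 1, 2 and 3, where 0.835%, 1.78% and 1.03% of all genes were. The first was Col28a1, the 4 were Col5a3, Col8a1, Col8a2 and Col11a1, and the 3 were Col4a6, Col8a2 and Col11a1. Without vasostatin-2 replicates 1, 2 and 3 there were 0 in each case, against 0.956%, 0.17% and 0.448% of all genes. With edgeR and 1 library left out, the number at an unadjusted p below 0.05 ran from 3 to 9. The 3 without vasostatin-2 replicate 2 or 3 were 8.33% and 8.11% of those tested, beside 3.36% and 4.74% of all genes, and the 9 without saline replicate 2 were 24.3% beside 11.2%. The number without overlap ran from 7 (without vasostatin-2 replicate 2, 19.4% beside 17.7% of all genes) to 13 (without saline replicate 3, 36.1% beside 22.8%). Without both replicates 3 it was 14, or 38.9% beside 33.2%. Because a gene had to reach a minimum count in 3 libraries to be tested, these shares describe the tested genes and not the whole family.

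**Figure D1:**
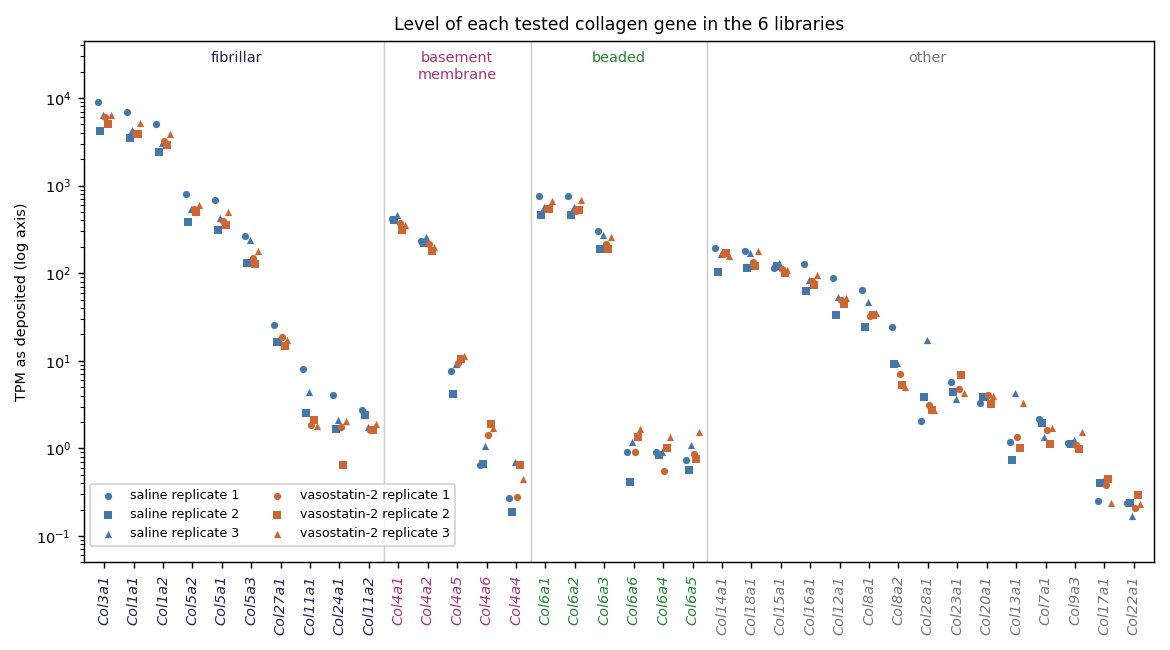
TPM of the 36 tested collagen genes (log axis) in each of the 6 libraries, with genes ordered by class and mean level, saline in blue and vasostatin-2 in orange, and the marker shape giving the replicate number. Col3a1, Col1a1 and Col1a2 stand at 2444 to 8975 TPM, far above the rest, and the libraries of the groups overlap in most genes.

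The family was dominated by 3 fibrillar chains. Col3a1, which forms the homotrimers of type III collagen, and Col1a1 and Col1a2, the chains of type I, together made up between 76.7% and 80.4% of all collagen TPM in a library. The 10 most abundant genes made up between 94.6% and 95.7%. By class, fibrillar chains gave 84.9 ± 2.20% of collagen TPM with saline and 85.2 ± 0.470% with vasostatin-2 (SD, n = 3 each). Beaded chains gave 7.76 ± 0.699% and 8.03 ± 0.449%, basement membrane chains 3.79 ± 1.16% and 3.27 ± 0.348%, and the other classes 3.55 ± 0.396% and 3.54 ± 0.206%. These shares differed between the groups by less than the spread of the saline libraries. A share also moves with the fibrillar total. In summed TPM the basement membrane class was at 656, 633 and 724 with saline and 599, 505 and 562 with vasostatin-2, without overlap. Most of that sum is Col4a1 and Col4a2. The sums of the fibrillar, beaded and other classes overlapped.

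The range of total collagen across the 6 libraries was set by the saline arteries. All 44 genes together accounted for 2.60%, 1.32% and 1.79% of TPM in saline replicates 1, 2 and 3, and for 1.68%, 1.51% and 1.95% in vasostatin-2 replicates 1, 2 and 3. The saline libraries held both the highest and the lowest value, and all vasostatin-2 libraries lay between them. In estimated counts, which are not scaled to length, the same genes took between 3.86% and 6.91% of a library.

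The fibrillar class is the bulk of that material. Col3a1 was at 8975, 4180 and 6463 TPM with saline and at 6064, 5063 and 6321.5 TPM with vasostatin-2. Col1a1 was at 6864, 3465 and 4297 TPM against 3968, 3860.5 and 5131 TPM. Col1a2 was at 5071, 2444 and 3098 TPM against 3187, 2871 and 3885 TPM. Each of the 3 was highest in saline replicate 1 and lowest in saline replicate 2, with every vasostatin-2 library in between. Their log2 fold changes, on counts, were −0.15 (SE 0.26), −0.16 (SE 0.26) and −0.07 (SE 0.27). Each turned positive without saline replicate 1, to 0.13, 0.15 and 0.25, and the log2 fold change of Col1a2 was 0.02 without vasostatin-2 replicate 2.

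Type V chains co-assemble with type I and help set the diameter of its fibrils. Col5a1 was at 691, 310 and 424 TPM with saline and 396, 358 and 501 TPM with vasostatin-2. Col5a2 was at 801, 385 and 533 TPM against 538, 505 and 601 TPM. Both repeated the order seen in type I, and their log2 fold changes were −0.16 (SE 0.28) and −0.05 (SE 0.24). Col5a3, a further chain of the type, was at 212 ± 71.7 TPM with saline and 151 ± 25.1 TPM with vasostatin-2 (SD, n = 3 each). Its log2 fold change was −0.47 (SE 0.25; edgeR adjusted p = 0.733). Col27a1, a fibrillar chain of cartilage and other tissues, was at 19.8 ± 4.82 against 16.9 ± 2.06 TPM.

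Col11a1, a minor fibrillar chain that joins type V and type II fibrils, showed the largest difference of the class. It was at 8.12, 2.54 and 4.39 TPM with saline and at 1.84, 2.11 and 1.82 TPM with vasostatin-2. All saline libraries lay above all vasostatin-2 libraries, and saline replicate 1 was the highest. The gene lies on chromosome 3 from 114030479 to 114223684. The log2 fold change was −1.48 (SE 0.38, unadjusted p = 0.00618), and edgeR's adjusted p was 0.562. DESeq2 gave an adjusted p of 0.0150, and in the authors' deposited table its q was 0.0214, where 0.533% of all genes with a value had a q below 0.05. Without saline replicate 1 the edgeR log2 fold change was −0.99 and the DESeq2 adjusted p was 0.0848. DESeq2's call was also lost without any 1 of the 3 vasostatin-2 libraries, at adjusted p of 0.0954, 0.208 and 0.166. Of 3 tested markers of cartilage and bone all had a log2 fold change below 0. Acan was highest in saline replicate 1 and Sox9 in vasostatin-2 replicate 1, and both overlapped between the groups. Matn3, a cartilage matrix gene, was at 0.82, 0.4 and 0.45 TPM with saline and 0.14, 0.2 and 0.03 TPM with vasostatin-2. These were 23, 12 and 13 counts against 4, 6 and 1, so Matn3 passed the count filter only through its saline libraries. Its direction is thus not a result. The part of cartilage and bone in the Col11a1 level was not tested. Col11a2, a partner chain of Col11a1, was at 2.29 ± 0.5 TPM with saline and 1.72 ± 0.177 TPM with vasostatin-2. Col24a1, a fibrillar chain best known from bone, was at 2.61 ± 1.25 against 1.48 ± 0.749 TPM.

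All 10 tested fibrillar genes had a log2 fold change below 0, with a median of −0.21. Over all genes tested 50.2% lay below 0, and their median was −0.00068. All 10 were also highest in saline replicate 1, so this is not a count of independent results. Without that library the median of the class was 0.03, and without saline replicate 2 it was −0.36.

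**Figure D2:**
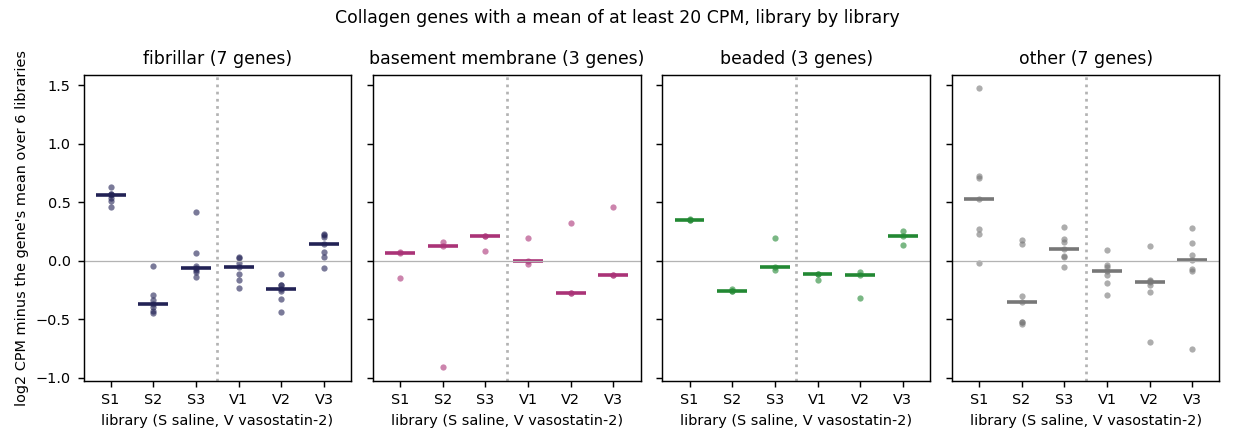
For the 20 collagen genes whose mean reached 20 CPM, log2 CPM minus the gene's own mean over the 6 libraries, by class, with 1 point per gene and a bar at the median (S, saline; V, vasostatin-2; the number is the replicate). Fibrillar medians are 0.56 in saline replicate 1 and −0.37 in saline replicate 2, while the basement membrane medians in the 3 saline libraries lie between 0.065 and 0.21.

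The spread between arteries was wider for collagens than for the median gene. The SD of log2 CPM was larger among saline than among vasostatin-2 libraries in 27 of 36 collagen genes (75%) and in 65.8% of all genes tested. For the collagens the median SD was 0.39 with saline and 0.21 with vasostatin-2, and for all genes tested 0.15 and 0.11. Saline replicate 1 was the highest library in 19 of the 36 (52.8%), against 21.4% of all genes, and saline replicate 2 the lowest in 17 (47.2%), against 23.2%. Saline replicate 2 also had the high red cell level given above and the lowest smooth muscle and fibroblast sums. The part of these cell types in the collagen levels was not tested.

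The basement membrane class divided by chain. Type IV collagen is built as heterotrimers, of which the pair alpha1 and alpha2 is found in nearly every basement membrane, and the pair alpha5 and alpha6 in that of smooth muscle among other tissues. In the genome each pair of genes lies head to head. Col4a1 and Col4a2 occupy chromosome 8 from 11187756 to 11312889 and from 11312805 to 11449287 in the deposited coordinates (GRCm38.p6). Col4a6 and Col4a5 occupy chromosome X from 141165403 to 141474076 and from 141475370 to 141689236. By RefSeq the start sites of the pair on chromosome 8 are 21 bases apart, and those of the pair on X are 1343 bases apart. The deposited spans of Col4a1 and Col4a2 overlap by 85 bases, where reads cannot be assigned without strand.

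The abundant pair was lower with vasostatin-2. Col4a1 was at 415, 406 and 456 TPM with saline and at 373, 315 and 351 TPM with vasostatin-2. Col4a2 was at 232, 222 and 256 TPM against 215, 178 and 197 TPM. In both genes the groups did not overlap. The log2 fold changes were −0.29 (SE 0.11, unadjusted p = 0.0307) and −0.26 (SE 0.10, unadjusted p = 0.0375), with edgeR adjusted p of 0.681 and 0.684. Neither was among the calls of DESeq2, with adjusted p of 0.196 and 0.395. Unlike the tested fibrillar chains, neither was highest in saline replicate 1. Both were highest in saline replicate 3, the library with the high Schwann cell sum. Of 6 endothelial markers, 4 had a log2 fold change below 0 and 2 above, with a median of −0.04, and they summed to between 855 and 997 TPM with saline and between 875 and 944 TPM with vasostatin-2. Among them Cdh5, the cadherin of endothelial junctions, was lower without overlap (log2 fold change −0.22, edgeR unadjusted p = 0.0269). Cldn5, a claudin of the same junctions, was higher without overlap (0.32, edgeR unadjusted p = 0.0426). The part of endothelial cells in the Col4a1 and Col4a2 levels was not tested.

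The scarcer pair on chromosome X was higher with vasostatin-2. Col4a5 was at 7.69, 4.2 and 9.09 TPM with saline and at 9.48, 10.37 and 11.38 TPM with vasostatin-2. Col4a6 was at 0.64, 0.66 and 1.05 TPM against 1.41, 1.92 and 1.7 TPM. The groups did not overlap in either gene. Col4a5 had a log2 fold change of 0.60 (SE 0.24, unadjusted p = 0.0411; edgeR adjusted p = 0.684), which was 0.36 without saline replicate 2. Col4a6 had a log2 fold change of 1.08 (SE 0.24, unadjusted p = 0.00309; edgeR adjusted p = 0.476). It rested on 39 to 67 counts with saline and 89 to 122 with vasostatin-2. DESeq2 gave Col4a6 an adjusted p of 0.0314, and the authors' deposited table a q of 0.04997. That call was kept without saline replicate 3 (adjusted p = 0.00325) and lost without each of the other libraries, at adjusted p between 0.0578 and 0.694.

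Markers of several other cell types lay in the same direction as this pair, and those of others did not. All 6 skeletal muscle markers and 5 of 6 macrophage markers had a log2 fold change above 0. For skeletal muscle this rested on vasostatin-2 replicate 3, with a sum of 1220 TPM. Vasostatin-2 replicates 1 and 2, at 68.7 and 85.1 TPM, lay below every saline library (88.5 to 122 TPM). Markers of Schwann cells, red cells and neutrophils, 6 each, were all below 0. For Schwann cells this rested on saline replicate 3, with a sum of 573 TPM. The other saline libraries, at 31.6 and 33.3 TPM, lay within the vasostatin-2 range (31.5 to 61.4 TPM). Red cell sums overlapped, at 7012, 43388 and 9492 TPM with saline and 8704, 1406 and 1149 TPM with vasostatin-2. Neutrophil sums also overlapped, at 780, 895 and 525 TPM against 585, 200 and 279 TPM. All 6 fibroblast markers were above 0, with a median of 0.38. Beside 6.07% of all genes, 3 of them were higher without overlap between the groups in CPM. These were Pdgfra, a growth factor receptor (0.56, edgeR unadjusted p = 0.00279, adjusted p = 0.458, DESeq2 adjusted p = 0.0143), and the fibril-binding proteoglycan genes Dcn (0.45) and Lum (0.71). All 6 smooth muscle markers were also above 0, with a median of 0.39, and overlapped between the groups. They summed to 1322, 750.28 and 1706 TPM with saline and to 812, 1999.6 and 2015 TPM with vasostatin-2. The part of fibroblasts and smooth muscle cells in the Col4a5 and Col4a6 levels was not tested. Col4a4, whose product pairs with that of Col4a3 in kidney and other specialised membranes, was at 0.383 ± 0.269 TPM with saline and 0.457 ± 0.180 TPM with vasostatin-2.

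The sequence ahead of the deposited start of both X-linked genes is given because they lie back to back and both were higher, and those of Col11a1 and Col8a2 because these had the lowest unadjusted p among the lower genes. Bases are from RefSeq (GRCm38.p6), 5′ to 3′ on the strand of the gene. Exon bases were left out, and capitals mark GGGCGG (the GC box) or CCAAT on either strand.
Col4a6: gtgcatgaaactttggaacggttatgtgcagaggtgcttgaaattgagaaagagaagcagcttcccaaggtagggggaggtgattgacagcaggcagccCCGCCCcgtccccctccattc
Col4a5: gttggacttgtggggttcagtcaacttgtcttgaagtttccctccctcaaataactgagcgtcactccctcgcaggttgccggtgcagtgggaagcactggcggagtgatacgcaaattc
Col11a1: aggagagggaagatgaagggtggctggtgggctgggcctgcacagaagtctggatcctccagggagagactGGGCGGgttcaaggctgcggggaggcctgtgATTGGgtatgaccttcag
Col8a2: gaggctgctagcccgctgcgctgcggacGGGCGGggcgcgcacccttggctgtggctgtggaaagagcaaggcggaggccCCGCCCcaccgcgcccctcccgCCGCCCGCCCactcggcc
These windows of 120 bases lie at chrX:141474077-141474196 on the minus strand, and at chrX:141475250-141475369, chr3:114030359-114030478 and chr4:126286673-126286792 on the plus strand. Measured from the RefSeq start they cover bases 120 to 1 before it in Col4a6, 169 to 50 in Col4a5, 181 to 62 in Col11a1 and 121 to 2 in Col8a2. The Col8a2 window holds 4 GC boxes, of which a pair overlap, those of Col4a6 and Col11a1 hold 1 each, Col11a1 also holds 1 CCAAT, and the Col4a5 window holds neither motif. In the 250 bases before the start, on either strand, 32.7% of 32851 RefSeq promoters hold GGGCGG, 33.8% hold CCAAT and 12.4% hold TATAAA. Among the 35 collagen genes with a RefSeq promoter, 21 hold GGGCGG, 13 hold CCAAT and 5 hold TATAAA in at least 1 promoter. A gene can have several promoters, so these counts per gene cannot be set beside the shares per promoter. A match is a description of letters and not of a bound site.

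**Figure D3:**
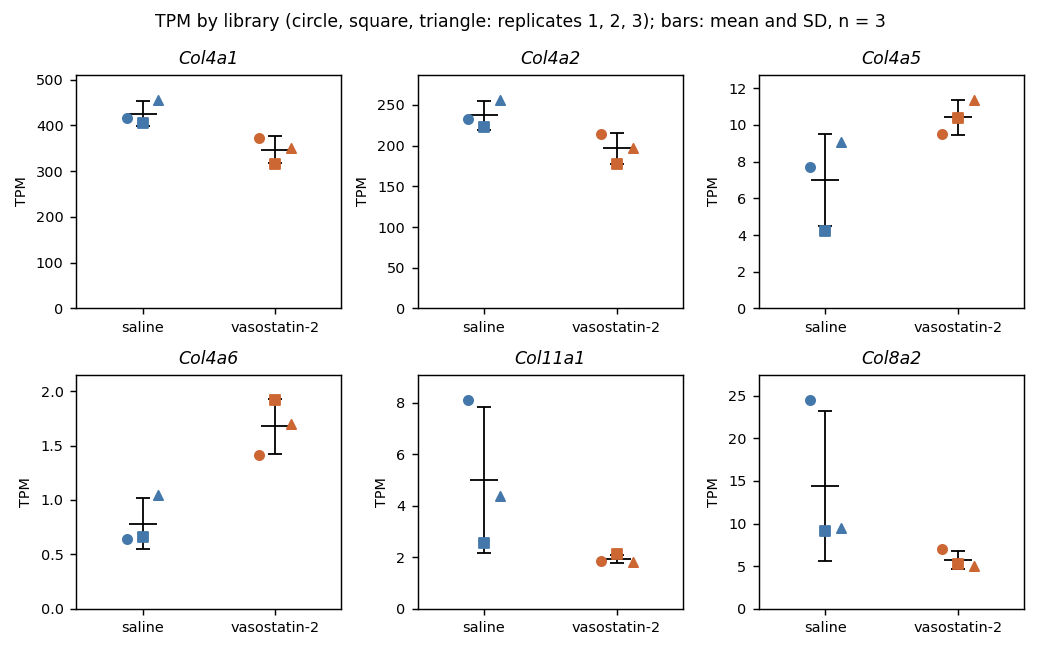
TPM of Col4a1, Col4a2, Col4a5, Col4a6, Col11a1 and Col8a2 in each library (circle, square and triangle for replicates 1, 2 and 3), with the mean and SD of each group (n = 3). Col4a5 and Col4a6 are higher in every vasostatin-2 library, the other 4 are lower, and for Col11a1 and Col8a2 saline replicate 1 lies well above the other saline libraries.

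The beaded filament chains of type VI showed little difference in their abundant members. Col6a1 was at 759, 459.5 and 564 TPM with saline and 534, 539 and 669 TPM with vasostatin-2, and Col6a2 at 755, 456 and 566 TPM against 511, 526 and 682 TPM. Col6a3, the long chain that completes the heterotrimer, was at 306, 187 and 275 TPM against 214, 187 and 255 TPM. Saline replicate 1 was again the highest library for each, and the groups overlapped. The log2 fold changes were −0.02 (SE 0.18), −0.03 (SE 0.19) and −0.21 (SE 0.19). The alternative chains Col6a4, Col6a5 and Col6a6, neighbours on chromosome 9 with related sequences, were near 1 TPM. Col6a6 was at 0.827 ± 0.385 TPM with saline and 1.31 ± 0.381 TPM with vasostatin-2, with a log2 fold change of 0.69 (SE 0.38), and Col6a5 at 0.8 ± 0.265 against 1.06 ± 0.430 TPM. Deposited counts of both were not whole numbers, so their division between these related genes is uncertain. No gene of the class had an unadjusted p below 0.05.

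Among the other classes, both short-chain type VIII genes had log2 fold changes below 0. Type VIII is a network-forming collagen of endothelium and of smooth muscle cells in injured vessels. Col8a2, on chromosome 4 from 126286794 to 126315142, was at 24.50, 9.18 and 9.43 TPM with saline and 6.97, 5.24 and 5.05 TPM with vasostatin-2. All vasostatin-2 libraries lay below all saline libraries, and saline replicate 1 was far above the rest. The log2 fold change was −1.30 (SE 0.39, unadjusted p = 0.0136; edgeR adjusted p = 0.605), and −0.71 without saline replicate 1. DESeq2 gave an adjusted p of 0.0538, and of 0.00559 and 0.00942 without saline replicates 2 and 3. DESeq2 did not call Col8a2 without saline replicate 1 or without any 1 of the vasostatin-2 libraries. Col8a1 was at 64.2, 24.6 and 47.05 TPM against 32.7, 33.0 and 35.3 TPM, with overlap and a log2 fold change of −0.40 (SE 0.28). It was −0.085 without saline replicate 1 and −0.68 without saline replicate 2.

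Fibril-associated collagens attach to the surface of fibrils. Col14a1, the most abundant of them, was at 194, 103 and 164 TPM with saline and 166, 169 and 156 TPM with vasostatin-2, a log2 fold change of 0.11 (SE 0.19). Col16a1 was at 90.9 ± 32.2 against 82.7 ± 10.6 TPM, and Col12a1, which is linked to tissue under tension, at 57.9 ± 27.5 against 48.6 ± 4.17 TPM. Col20a1 was nearly level across all libraries, from 3.20 to 4.01 TPM.

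The multiplexins Col15a1 and Col18a1 encode proteoglycan collagens of the basement membrane zone, and the end of the Col18a1 product is released as endostatin. Col15a1 was at 116, 119 and 130 TPM with saline and 110, 101 and 108 TPM with vasostatin-2. The groups did not overlap, and the log2 fold change was −0.19 (SE 0.08, unadjusted p = 0.0533; edgeR adjusted p = 0.710). Col18a1 was at 179, 113 and 170 TPM against 135, 122 and 178 TPM, with overlap and a log2 fold change of −0.07 (SE 0.19). Col15a1 was thus, like Col4a1 and Col4a2, without the peak in saline replicate 1, and was highest in saline replicate 3.

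A few scarce collagens were highest in the library rich in nerve transcripts. Col28a1, known from Schwann cells of peripheral nerve, was at 2.05, 3.87 and 17.4 TPM with saline and 3.12, 2.74 and 2.72 TPM with vasostatin-2. Its high value was in saline replicate 3, the library with the high sum of Schwann cell markers. Saline replicates 1 and 2 lay on either side of the vasostatin-2 values. Col26a1 (54 counts there and at most 6.25 elsewhere) and Col2a1 were highest in the same library. The log2 fold change of Col28a1 was −1.48 (SE 0.74; edgeR adjusted p = 0.725). Col13a1, a transmembrane collagen of the neuromuscular junction and other contacts, was at 4.26 TPM in saline replicate 3 and 3.25 TPM in vasostatin-2 replicate 3, and between 0.740 and 1.33 TPM in the other libraries. The part of nerve and muscle tissue in these values was not tested.

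The epithelial collagens were scarce. Col17a1, of hemidesmosomes, was at 0.357 ± 0.0929 and 0.357 ± 0.107 TPM, and Col7a1, of anchoring fibrils, at 1.82 ± 0.437 and 1.48 ± 0.316 TPM. The keratinocyte gene Krt5 was at 2.66 to 7.75 TPM. Col23a1, a transmembrane chain, was at 4.58 ± 1.05 against 5.28 ± 1.35 TPM.

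**Figure D4:**
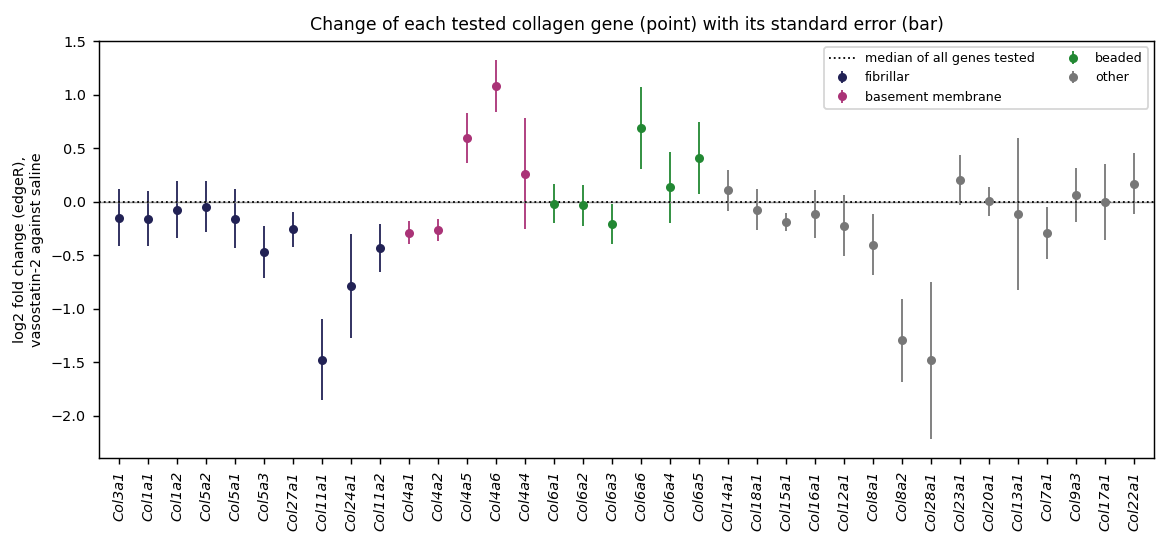
log2 fold change of the 36 tested collagen genes, vasostatin-2 against saline, from edgeR (points) with standard errors (bars), with colours for the 4 classes, and the median of all genes tested as a dotted line. Col11a1, Col28a1 and Col8a2 lie lowest, at −1.48, −1.48 and −1.30, and Col4a6 highest, at 1.08. None of these differences passed the adjusted threshold.

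Some chains that assemble together kept narrow proportions, and others varied. The TPM of Col4a1 was 1.74 to 1.82 times that of Col4a2 in all 6 libraries, while the level of Col4a1 itself varied 1.45-fold. The ratio of Col6a1 to Col6a2 lay between 0.980 and 1.05, while Col6a1 varied 1.65-fold. The ratio of Col1a1 to Col1a2 was 1.35, 1.42 and 1.39 with saline and 1.24, 1.34 and 1.32 with vasostatin-2, a narrow range beside the 1.98-fold range of Col1a1. All vasostatin-2 ratios lay below all saline ratios. Col6a3 over Col6a1 was 0.433 ± 0.0474 with saline and 0.377 ± 0.0266 with vasostatin-2 (SD, n = 3 each). Of 10 ratios computed, these 2 and the next 2 did not overlap between the groups. The next 2 share the denominator Col5a1, and the level of Col11a1 alone already did not overlap. No share over all genes was computed for such ratios. The ratio of Col5a3 to Col5a1 was 0.386, 0.423 and 0.563 with saline and 0.371, 0.358 and 0.355 with vasostatin-2. The ratio of Col11a1 to Col5a1 was 0.0117, 0.0082 and 0.0104 with saline and 0.0046, 0.0059 and 0.0036 with vasostatin-2. The ratio of Col8a1 to Col8a2 ran from 2.62 to 6.98, and that of Col4a5 to Col4a6 from 5.40 to 12.02.

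The genes that make, crosslink, bind and degrade collagen differed as little. Of a list of 55 such genes, 54 were tested, and edgeR called 0 in either direction. At an unadjusted p below 0.05 there was 1 lower and 2 higher gene, 5.56% of the list beside the 7.14% of all genes. The median log2 fold change was −0.04, and 38 of the 54 lay below 0, among them 7 of 8 degradation genes (median −0.24). The groups did not overlap in 4 of the 54, against 12.8% of all genes. Of these, Mmp14 and Bmp1 were lower and Pcolce2 and Lair1 higher. Serpinh1, the collagen chaperone HSP47, was at 1722 ± 441 TPM with saline and 1700 ± 375 TPM with vasostatin-2. P4hb, a subunit of prolyl 4-hydroxylase, was at 800 ± 151 against 766 ± 84.4 TPM, and the collagen galactosyltransferase Colgalt1 at 182 ± 25.5 against 177 ± 10.6 TPM. All 8 chaperone and secretion genes and all 5 of lysyl hydroxylation and glycosylation had log2 fold changes below 0. Over all genes tested 50.2% did. The medians of the 2 roles were −0.049 and −0.035, and the lowest value was −0.29 for the lysyl hydroxylase gene Plod2. Without saline replicate 1, the log2 fold changes of Serpinh1 and Colgalt1 were 0.17 and 0.058. Serpinh1, at −0.0013, turned to 0.0027 with upper-quartile scaling.

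Outside the cell, Pcolce, which enhances removal of the C-propeptide, was at 648 ± 144 TPM with saline and 622 ± 17.3 TPM with vasostatin-2. The crosslinking enzyme gene Lox was at 558 ± 182 against 598 ± 10.2 TPM, and Itgb1, the shared beta subunit of collagen-binding integrins, at 386 ± 62.0 against 388 ± 32.5 TPM. Timp1, an inhibitor of matrix metalloproteinases, was at 618 ± 145 against 588 ± 40.0 TPM. Mmp14, a membrane-bound collagenase, was at 399 ± 102 TPM with saline and 279 ± 40.6 TPM with vasostatin-2, without overlap and with a log2 fold change of −0.50 (SE 0.18, unadjusted p = 0.0291; edgeR adjusted p = 0.681). It was −0.30 without saline replicate 1. Pcolce2, a relative of Pcolce, had a log2 fold change of 0.40 (SE 0.16, unadjusted p = 0.0382; edgeR adjusted p = 0.684), and 0.25 without vasostatin-2 replicate 2. Lair1, a collagen receptor of immune cells, was at 30.6 ± 5.52 against 45.6 ± 6.98 TPM, a log2 fold change of 0.56 (SE 0.18, unadjusted p = 0.0185; edgeR adjusted p = 0.631). Of 6 macrophage markers 5 had a log2 fold change above 0, with a median of 0.14. Adgre1, which encodes F4/80 (0.50, edgeR unadjusted p = 0.00803), and the complement gene C1qa (0.35, edgeR unadjusted p = 0.0213) were higher without overlap. The summed level, of which Lyz2 alone gave 5809 to 9658 TPM (lowest and highest library), lay between 8793 and 13196 TPM with saline and between 10751 and 11675 TPM with vasostatin-2. The part of macrophages in the Lair1 level was not tested.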

How the data were processed

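For 6 libraries, 3 per group, values were read from 1 deposited table of 18476 genes. HISAT2 2.1.0, DESeq2 1.26.0 and the build GRCm38.p6 are named in the submitters' processing notes. The tool that counted reads and the strandedness are not given in the sources used here. The authors deposited an estimated count for each gene and library, which need not be whole (65.6% are), and FPKM and TPM values, per the file headers. The authors also deposited a log2 fold change for their comparison, and p-values and q-values from DESeq2, per the file headers. FPKM was used here only as an alternative to TPM in class shares. Strand was taken from RefSeq, since the deposited strand differed for 6 of 35 collagen genes.

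Estimated counts were rounded, filtered with filterByExpr (14557 genes left) and scaled by TMM. edgeR 4.0.16 (R 4.3.3) fitted treatment as the only term with robust dispersion, with the Benjamini-Hochberg adjustment of p-values over all genes tested. The test was checked on simulated data. Levels are compared between genes only in TPM, while CPM and log2 fold changes are on counts. DESeq2 1.42.0, limma 3.58.1 (voom, and log2(TPM + 1)), other scalings and filters, a replicate block and leaving out libraries were alternatives. Python 3.11.15, pandas 2.3.3 and matplotlib 3.10.9 were used for tables and figures.

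The collagen genes, the classes, the pathway list and the markers were chosen with earlier results of these data known. Values in every library are given for the 3 most abundant tested genes of each class, for those with an unadjusted p below 0.05 or without overlap (mean of at least 1 CPM), and for chain partners. Pathway genes are named for an unadjusted p below 0.05 or as the most abundant of a role. Further genes with values were named after these had been seen. Within each group every pair of libraries differed beyond sampling noise (chi-square per degree of freedom of 15.4 to 79.4), and none was counted as a duplicate. The edgeR p-values set the difference between the groups against the spread among these libraries. Both groups share 1 estimate of that spread, although the SD was larger with saline in 75% of the tested collagen genes. An exact permutation test of 3 against 3 cannot go below 0.1. At this depth 3 counts correspond to 0.149 to 0.155 CPM.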

Additional observations from a re-analysis of the deposited data

How the results depend on the processing

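The count of collagen genes past the adjusted threshold was 0 under all edgeR and limma alternatives and with each library left out, and 2 with DESeq2. Leaving out each library in turn with DESeq2, an alternative chosen after seeing the data, gave 0 to 4 collagen genes (1, 4 and 3 without saline replicates 1, 2 and 3, and 0 without any vasostatin-2 library) and 0 to 1 pathway genes (1 each without saline replicates 1 and 2 and vasostatin-2 replicate 1). With edgeR and 1 library left out, 3 to 9 collagen genes had an unadjusted p below 0.05 and 7 to 13 did not overlap, and without both replicates 3 the number without overlap was 14. The share of all genes at these settings moved as well, from 3.36% to 11.2% at an unadjusted p below 0.05 and from 17.7% to 30% without overlap, and to 33.2% without both replicates 3. The basement membrane median log2 fold change, 0.26 over 5 genes, ran from −0.16 to 0.81 and was 0.74 without both replicates 3. It is the middle of genes on opposite sides of 0. The median of all tested collagens, −0.11, ran from −0.25 to 0.05, the beaded median, 0.06, from −0.15 to 0.24, and that of the other classes, −0.11, from −0.22 to −0.0014. In CPM the fibrillar, basement membrane and beaded shares with vasostatin-2 were 85.95%, 3.78% and 6.59%, and the beaded share with saline 6.47%. TPM divides by gene length and CPM does not.

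Signs turned for some named genes whose differences were small. Leaving out each library gave log2 fold changes of −0.36 to 0.13 for Col3a1, −0.32 to 0.15 for Col1a1, −0.25 to 0.25 for Col1a2, −0.24 to 0.25 for Col5a2 and −0.36 to 0.18 for Col5a1. The ranges were −0.14 to 0.17 for Col6a1, −0.18 to 0.16 for Col6a2, −0.085 to 0.29 for Col14a1 and −0.25 to 0.038 for Col18a1. For pathway genes they were −0.20 to 0.17 for Serpinh1, −0.0077 to 0.39 for Lox, −0.14 to 0.12 for Timp1, −0.087 to 0.058 for Colgalt1, −0.14 to 0.077 for P4hb, −0.14 to 0.12 for Pcolce and −0.074 to 0.089 for Itgb1.

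No named gene turned sign without saline replicate 3 or without both replicates 3. Deviations of same-numbered libraries had correlations of −0.15, 0.02 and 0.04, and those of differently numbered libraries ran from −0.25 to 0.24. With 3 libraries per group, these values cannot show whether the numbers pair the samples. With the replicate block edgeR called 0 collagen genes, 5 had an unadjusted p below 0.05, and the log2 fold changes of Col5a2 and Serpinh1 turned to 0.0048 and 0.0013. Serpinh1 also turned to 0.0027 with upper-quartile scaling and 0.0019 without the filter, and Itgb1 to −0.0006 with limma-voom.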
